A study of Mus musculus with 8 samples.

Results

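Wnt signalling starts outside the cell, and its ligands, receptors and secreted regulators are encoded by gene families of similar names. The genes described here were taken from the gene table by name, as the Wnt ligands, the Frizzled receptors (Fzd), the secreted Frizzled-related proteins (Sfrp), the Dickkopf proteins (Dkk), the R-spondins (Rspo) and 6 co-receptors and receptor kinases (Lrp5, Lrp6, Ror1, Ror2, Ryk and Ptk7). The names matched 47 of the 55401 genes in the table, of which 19 were Wnt ligands, 10 Frizzled receptors, 6 co-receptors and kinases, and 4 each of the Sfrp, Dkk and Rspo genes. RNA was sequenced from mouse embryonic fibroblasts (MEFs), 4 SLMAP3-/- and 4 wild-type (WT) lines with 1 library per line. All 8 lines came from B6C3F1 embryos of stage E14.5, were grown from the body without head and organs, and were immortalized with SV40 large T antigen, so that both genotypes carried it. The SLMAP3-/- lines lacked SLMAP3, a membrane-anchored component of the STRIPAK phosphatase complex, after a CMV promoter-driven Cre had recombined floxed exon 3 of Slmap. Sex and litter of the embryos were not given in the sources used here.

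Wnt ligands are secreted, lipid-modified glycoproteins that bind Frizzled receptors. With LRP5 or LRP6 as co-receptor they stabilize beta-catenin, which then activates genes such as Axin2 together with TCF and LEF factors. With ROR2, RYK or PTK7, and WNT5A as a well-studied ligand, they act without beta-catenin on the cytoskeleton and on planar cell polarity, the alignment of cells in the plane of a tissue. Secreted Frizzled-related proteins bind Wnts outside the cell, most Dickkopf proteins block LRP5 and LRP6, and R-spondins raise Frizzled levels at the surface through LGR receptors. In the embryo, fibroblasts and other mesenchymal cells both send and receive these signals.

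Slmap, the targeted gene, followed the labels and was 44.3, 32.7, 36.3 and 39.7 CPM in SLMAP3-/- replicates 1 to 4 and 124, 139, 143 and 140.6 CPM in WT replicates 1 to 4, where CPM is the count scaled to a common size of the libraries. Its log2 fold change, SLMAP3-/- over WT, was -1.84 (SE 0.11, adjusted p = 0.00119 in the quasi-likelihood test of edgeR, with p-values adjusted by Benjamini-Hochberg over the whole table tested). The 10 fibroblast markers summed to between 15720 and 23450 CPM in each line, and Col1a1, Fn1, Col1a2 and Vim carried most of that sum. Other markers of the list differed widely between lines, Pdgfra 10.3-fold, Thy1 7.79-fold, Dcn 46.0-fold and Lum 164-fold from the lowest line to the highest. The endothelial list summed to between 9.45 and 40.49 CPM, almost all of it from Kdr and Tek, while the defining genes Pecam1, Cdh5 and Tie1 were near 0. The neural list summed to between 85.3 and 275 CPM, most of it Map2, with Sox10 near 0, and the cartilage list to between 23.1 and 76.6 CPM, with Col2a1 from 0.537 to 27.1 CPM. The epithelial, blood and skeletal muscle lists reached at most 5.48 CPM in a line. The totals of the libraries ranged from 49879059 to 63322486 estimated counts.

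Of the 47 Wnt pathway genes, 35 were expressed above the filter on low counts, which asks for about 10 counts in at least as many lines as 1 genotype has. They were 13 ligands, 9 Frizzled receptors, all 6 co-receptors and kinases, Sfrp1 and Sfrp2, Dkk2 and Dkk3, and Rspo1, Rspo2 and Rspo3. A further 10 genes had counts but fell under the filter. Sfrp4 was the highest of them, with 77 counts over the 8 lines, 43 of them in a single WT line. The others had between 2 and 24 counts over all 8 lines. They included the neural and early embryonic ligands Wnt1 (24 counts), Wnt3 (19), Wnt3a (4) and Wnt8a (4), and also the ligand Wnt9b (2). The receptor Fzd10 had 6 counts, Sfrp5 had 13, the LRP antagonist Dkk1 had 7, and Rspo4 had 9. No count was assigned to Wnt8b or Dkk4 in any line, and 3 counts in the smallest library, the limit that a count of 0 allows, correspond to 0.0601 CPM. Such limits cover counting error only. A count in bulk RNA does not tell fewer expressing cells from less RNA per cell, here and in all results that follow.

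Promoter sequence was compared with these levels, since a dense run of CpG dinucleotides marks the promoters of many genes of broad use and of many developmental genes. RefSeq promoters of GRCm38.p6, from 250 bases before to 50 bases after the start site, were matched for 31 of the 47 genes, at the start farthest upstream. Promoters of the 22 expressed genes among them held a median of 31.5 CpG dinucleotides (10 to 58), and 19 held 15 or more. Of the 9 genes under the filter, the median was 26 (6 to 45) and 7 held 15 or more. Over all 32851 promoters in the table the median was 7, and 34.64% held 15 or more. That set holds every listed start of a gene, not only the farthest upstream, so the sets are not alike. Wnt5b, for instance, held 47 CpG at the start used and 7 and 4 at its others. Expressed and unexpressed genes of the pathway thus overlapped in CpG number. The following stretches run from 250 to 11 bases before the start, 5′ to 3′ on the strand of the gene, with each CpG in capitals. They are Ryk, the highest gene per length of the median transcript, then Wnt3a, whose promoter was as rich in CpG although only 4 counts were seen, then Wnt16, the highest ligand, then Dkk2, an expressed antagonist gene with few CpG and a TATAAA match, and Wnt8b, which had no count.
Ryk (chr9:102834670-102834909, + strand, 33 CpG): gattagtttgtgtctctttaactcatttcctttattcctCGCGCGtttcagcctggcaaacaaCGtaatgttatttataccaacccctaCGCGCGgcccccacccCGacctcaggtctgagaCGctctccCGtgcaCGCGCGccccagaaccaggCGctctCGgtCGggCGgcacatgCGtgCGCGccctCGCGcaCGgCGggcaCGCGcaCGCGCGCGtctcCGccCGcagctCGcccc
Wnt3a (chr11:59290762-59291001, - strand, 40 CpG): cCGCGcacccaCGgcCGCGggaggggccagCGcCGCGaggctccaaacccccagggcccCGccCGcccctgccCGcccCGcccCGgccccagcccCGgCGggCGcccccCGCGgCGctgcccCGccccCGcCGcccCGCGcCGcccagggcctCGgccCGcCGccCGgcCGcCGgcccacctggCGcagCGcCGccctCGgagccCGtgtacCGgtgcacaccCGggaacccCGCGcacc
Wnt16 (chr6:22287977-22288216, + strand, 9 CpG): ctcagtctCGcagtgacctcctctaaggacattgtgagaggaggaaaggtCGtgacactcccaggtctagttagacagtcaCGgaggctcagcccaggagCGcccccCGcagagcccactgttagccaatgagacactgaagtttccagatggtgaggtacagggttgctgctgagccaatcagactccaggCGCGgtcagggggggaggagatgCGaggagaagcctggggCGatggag
Dkk2 (chr3:132085042-132085281, + strand, 7 CpG): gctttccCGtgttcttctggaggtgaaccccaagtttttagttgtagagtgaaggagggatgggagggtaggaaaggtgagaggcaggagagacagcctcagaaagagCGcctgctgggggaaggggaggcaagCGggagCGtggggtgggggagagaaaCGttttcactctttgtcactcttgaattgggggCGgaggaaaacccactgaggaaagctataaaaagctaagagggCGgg
Wnt8b (chr19:44493222-44493461, + strand, 5 CpG): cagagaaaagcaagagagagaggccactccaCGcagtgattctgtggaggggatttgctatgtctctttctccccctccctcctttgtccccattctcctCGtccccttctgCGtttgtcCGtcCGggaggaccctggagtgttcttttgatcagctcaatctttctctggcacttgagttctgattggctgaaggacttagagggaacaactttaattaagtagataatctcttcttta

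Wnt16 and Dkk2 were thus expressed genes with 9 and 7 CpG in this stretch, and Wnt3a was near 0 with 40. Counts were per gene, so which start site the RNA came from was not measured. TATAAA on the strand of the gene, 50 to 11 bases before the start, was found at Dkk2, 32 bases before it, and at Wnt11, against 2.402% of all promoters. ATCAAAG or TTCAAAG, short forms of the TCF and LEF motif searched on both strands of the 300 bases, was found at Dkk1 and Wnt11 and, at a start farther downstream, at Wnt5b, against 8.651% of all promoters. Both words end alike and cannot match at the same position on 1 strand.

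The levels of the 35 expressed genes were then compared with each other per length, as CPM per kilobase of the median annotated coding transcript. Ryk, a receptor-like kinase without kinase activity that binds Wnts, was the highest at 94.4 CPM per kilobase over the 8 lines (72.2 to 108), and Ptk7, a pseudokinase of planar cell polarity, followed at 71.1 (59.6 to 89.4). Sfrp2 came next at 68.5, then Dkk3 at 39.5, Wnt16 at 34.1 and Fzd2 at 33.9. At the other end, Wnt6, Wnt4, Wnt2, Wnt2b and Fzd9 were all between 0.226 and 0.383. Neighbours in this order were not separated. The ranges of all 34 neighbouring pairs overlapped, and in 1 pair, Ryk and Ptk7, the first was above the second in all 8 lines. The order also depended on the length used. With the union of exons Sfrp2 came first at 63.7, then Ptk7 at 55.95 and Ryk at 55.8 CPM per kilobase. Wnt16 went from rank 5 to 12 with the longest transcript and to 13 with the union of exons. Its mean over the 8 lines stayed the highest of the ligands with each length, which did not hold in every single line. Lrp6 went from rank 8 to 13 and 14, Fzd4 from 17 to 15 and 12, Fzd1 from 12 to 9 and 8, Lrp5 from 11 to 11 and 15, and Dkk2 from 14 to 14 and 10.

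**Figure D1:**
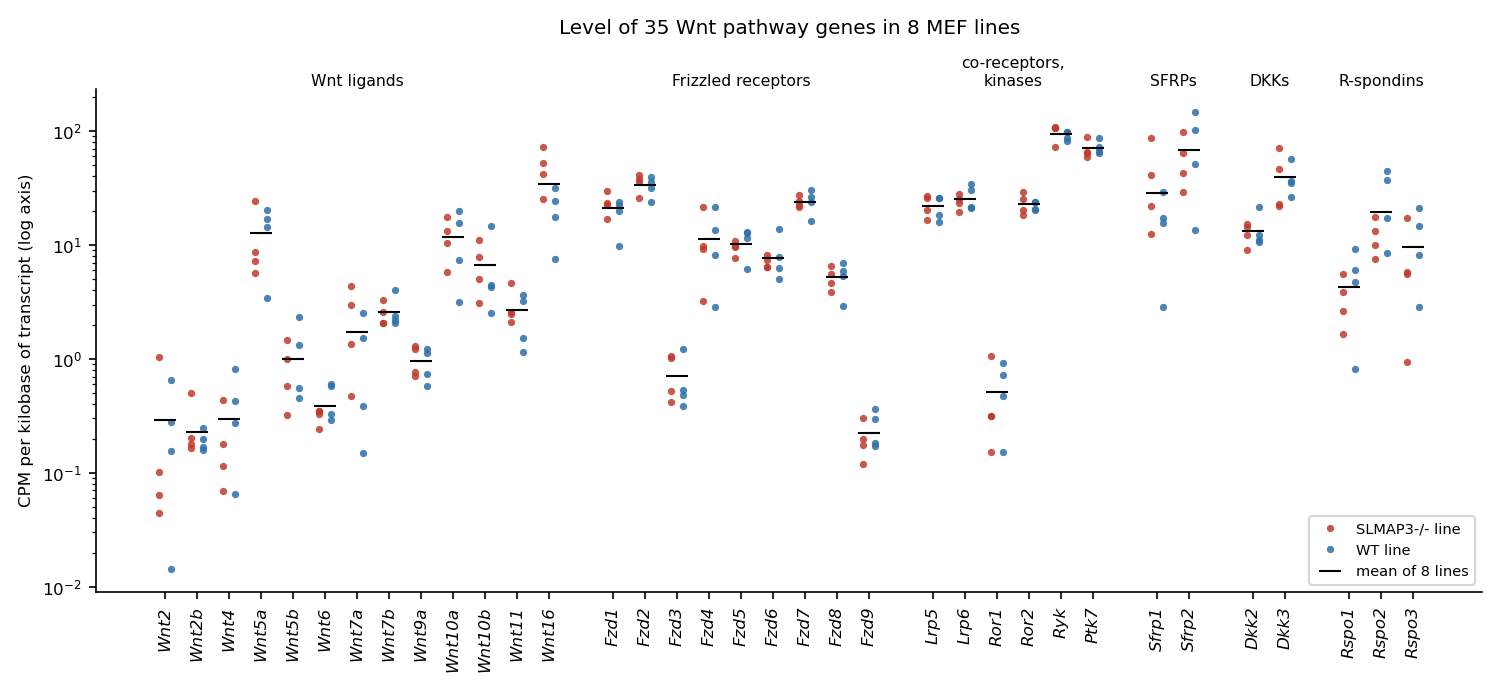
Each point is 1 line, plotted as CPM per kilobase of transcript on a log axis, for the 35 expressed genes grouped by role, with SLMAP3-/- lines in red, WT lines in blue and the mean of the 8 lines as a bar. The kinases Ryk and Ptk7 are high and tightly grouped, and the low WT point of Wnt16, Sfrp1, Sfrp2 and Rspo1 is WT replicate 1 in each case.

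Across the whole group, no Wnt pathway gene passed the test between SLMAP3-/- and WT lines. With an adjusted p under 0.05 in edgeR, 0 of 35 were called, against 1 of 15461 genes tested (0.00647%), and DESeq2 called 0 of them, against 0.0633% of the genes to which it gave an adjusted p. An unadjusted p under 0.05 was reached by 2 of the 35, Wnt16 and Rspo2 (5.71%), against 1.81% of all genes tested, and DESeq2 added Sfrp1 to them, against 1.63% of all genes with a p there. In limma-voom 1 of the 35 reached it, against 1.74%. In none of the 35 did the 4 SLMAP3-/- lines all lie on 1 side of the 4 WT lines, against 1.25% of all genes. The fold change was above 0 for 16 and below 0 for 19, with a median log2 fold change of -0.04 beside 0.00 over all genes. The 95% interval of the log2 fold change spanned 0 for all but Wnt16 and Rspo2.

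**Figure D2:**
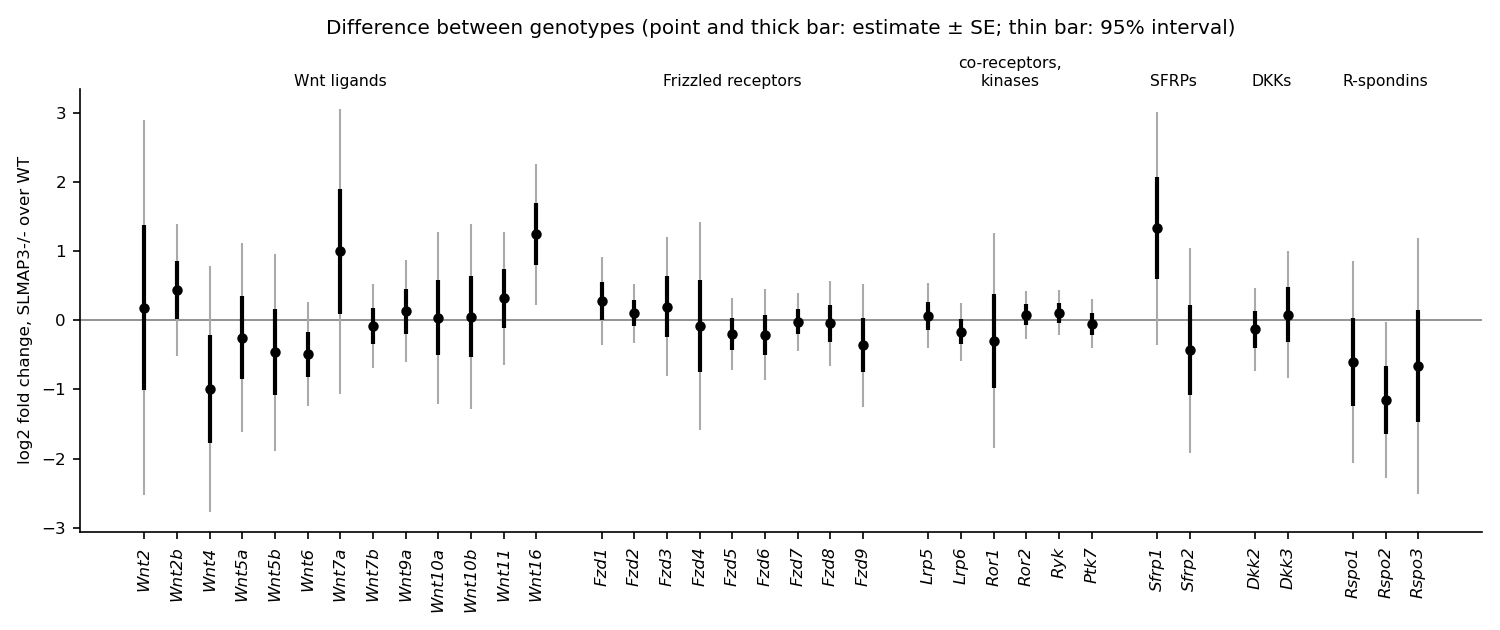
The log2 fold change, SLMAP3-/- over WT, is shown for each expressed gene as a point with its SE as a thick bar and its 95% interval as a thin bar. Intervals are narrow for most Frizzled receptors and kinases, and for Wnt2, Wnt7a and Sfrp1 they reach from below 0 to about 3.

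Among the ligands, Wnt16, Wnt5a, Wnt10a and Wnt10b made up most of the summed level per kilobase. Wnt16 (chromosome 6 of GRCm38, 22288227 to 22298522), known from bone and joint tissue, took a mean of 42.3% of the sum over ligands (14.2% to 66.6%). Wnt5a took 16.9%, Wnt10a 16.5% and Wnt10b 10.0%. With this length, that of the median coding transcript, Wnt16 was the highest ligand in 7 of the 8 lines, and in WT replicate 1 it was Wnt10a. The shares and the highest ligand of a line depended on the length. The median transcript of Wnt16 has 1415.5 bases and its union of exons 4360, against 5330 and 7823 for Wnt5a. Per kilobase of the union, Wnt5a was above Wnt16 in several WT lines.

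Wnt16 was 102, 59.4, 73.5 and 36.1 CPM in SLMAP3-/- replicates 1 to 4. It was 10.6, 45.02, 24.8 and 34.3 CPM in WT replicates 1 to 4. Thus 3 SLMAP3-/- lines were above every WT line, and SLMAP3-/- replicate 4 lay among the WT lines. The means were 67.8 ± 27.5 CPM (SD, n = 4) in SLMAP3-/- and 28.7 ± 14.6 CPM (SD, n = 4) in WT lines. The log2 fold change was 1.24 (SE 0.45, 95% interval 0.22 to 2.26), with an unadjusted p of 0.0225 and an adjusted p of 1.00 in edgeR. An exact permutation test on log2 CPM, two-sided, gave p = 0.0571, where 0.0286 is the smallest it can give for 4 lines against 4. Without SLMAP3-/- replicate 1 the unadjusted p in edgeR was 0.0655, and without WT replicate 3 it was 0.0531.

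Wnt5a (chromosome 14, 28504750 to 28527448) was the ligand that the study added to these cells. Its own transcript was at 130.7, 45.9, 38.7 and 30.5 CPM in the SLMAP3-/- lines. In the WT lines it was at 18.3, 90.5, 76.0 and 107.7 CPM. The highest of all 8 lines was SLMAP3-/- and the lowest was WT, while the other 3 SLMAP3-/- lines were below the other 3 WT lines. The log2 fold change was -0.25 (SE 0.60, 95% interval -1.61 to 1.11, adjusted p = 1.00 in edgeR). Its interval therefore holds both a 2-fold fall and a 2-fold rise. Without SLMAP3-/- replicate 1 the log2 fold change was -0.93, and without WT replicate 4 it was 3e-04. A gene on the opposite strand, Gm2670, overlaps Wnt5a, and whether the counting used strand was not stated. The same limit holds for Wnt5b, Wnt6, Wnt7b, Wnt11, Fzd3, Fzd5, Fzd6, Ror1, Ptk7, Sfrp2, Rspo1 and Rspo3. Each of these expressed genes is also overlapped by a gene on the opposite strand.

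Wnt2, Wnt7a and Wnt4 varied most among the ligands. Wnt2, known from lung and blood vessel development, was 2.32, 0.100, 0.145 and 0.230 CPM in the SLMAP3-/- lines and 0.0323, 0.348, 0.624 and 1.46 CPM in the WT lines. SLMAP3-/- replicate 1 and WT replicate 4 were high and WT replicate 1 was at 2 counts. Wnt7a, a signal of limb and skin ectoderm, was 4.31, 13.8, 1.49 and 9.47 CPM in SLMAP3-/- and 4.81, 8.09, 0.473 and 1.22 CPM in WT lines. Wnt4, a signal of kidney and gonad, was 0.744, 0.480, 0.289 and 1.82 CPM in SLMAP3-/- and 0.274, 1.14, 1.78 and 3.44 CPM in WT lines. In all 3 genes the ranges of the genotypes overlapped, and the lowest line of all was WT each time. The log2 fold changes were 0.18 (SE 1.19) for Wnt2, 0.99 (SE 0.90) for Wnt7a and -0.99 (SE 0.78) for Wnt4. Single lines moved them. Wnt2 was at -1.94 without SLMAP3-/- replicate 1 and at 1.07 without WT replicate 4, Wnt7a at 0.48 without SLMAP3-/- replicate 2 and at 1.74 without WT replicate 2, and Wnt4 at -1.71 without SLMAP3-/- replicate 4 and at -0.35 without WT replicate 4. The other ligands had log2 fold changes between -0.49 for Wnt6 and 0.43 for Wnt2b, with Wnt5b at -0.46, Wnt7b at -0.09, Wnt10a at 0.04, Wnt10b at 0.05, Wnt9a at 0.13 and Wnt11 at 0.32.

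The Frizzled receptors were more alike between lines. Fzd2, Fzd7 and Fzd1, receptors of closely related sequence, together carried most of the summed Frizzled level per kilobase, with mean shares of 29.8%, 21.0% and 18.2%. Fzd2 (chromosome 11, 102604396 to 102608058) was the highest Frizzled receptor in all 8 lines. It was 95.2, 139.9, 149 and 129 CPM in the SLMAP3-/- lines and 86.6, 130.3, 145.5 and 116 CPM in the WT lines. Replicate 1 was the lowest line in each genotype, and the genotypes overlapped over nearly their whole range. Its log2 fold change was 0.10 (SE 0.19, 95% interval -0.33 to 0.53). The log2 fold changes of the other 8 receptors lay between -0.36 for Fzd9 and 0.28 for Fzd1, with Fzd3 at 0.19, Fzd7 at -0.02, Fzd8 at -0.04, Fzd4 at -0.08, Fzd5 at -0.20 and Fzd6 at -0.21. Fzd4, the receptor of Norrin in blood vessels, was the most variable of them, from 19.1 CPM in WT replicate 1 and 21.9 CPM in SLMAP3-/- replicate 2 to 143 CPM in SLMAP3-/- replicate 1 and 144.9 CPM in WT replicate 4. Fzd5 was lower in every SLMAP3-/- line than in WT replicates 2 to 4, with WT replicate 1 the lowest of all. Without WT replicate 1 its log2 fold change was -0.39, with an unadjusted p of 0.0150 and an adjusted p of 0.999 in edgeR, in a fit where 3.47% of all genes had an unadjusted p under 0.05.

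Most co-receptors and receptor kinases varied little within a genotype, so that their intervals were narrow. Ryk (chromosome 9, 102834917 to 102908305) was 284, 283, 193 and 289.5 CPM in the SLMAP3-/- lines and 265, 259.7, 216.5 and 233 CPM in the WT lines. SLMAP3-/- replicate 3 was the lowest of all 8 lines and the other 3 SLMAP3-/- lines the highest, and the log2 fold change was 0.11 (SE 0.14, 95% interval -0.22 to 0.44). Ror2 (chromosome 13, 53109312 to 53286124), the kinase best known as a WNT5A receptor, was 113, 78.5, 97.1 and 71.3 CPM in the SLMAP3-/- lines and 80.0, 92.4, 91.9 and 77.5 CPM in the WT lines. Its log2 fold change was 0.08 (SE 0.15, 95% interval -0.27 to 0.42), so that a change of Ror2 by more than about 0.42 on the log2 scale lay outside the interval. Ptk7 was at -0.05 (SE 0.16), Lrp5 at 0.06 (SE 0.20), Lrp6 at -0.17 (SE 0.18) and Ror1, which was low at 2.96 CPM, at -0.30 (SE 0.68).

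The secreted Frizzled-related proteins, which bind Wnts and can hold them from their receptors, were at the other extreme. Sfrp2 (chromosome 3, 83766321 to 83774316) took a mean of 71.7% of their summed level per kilobase. It was 85.5, 58.0, 197 and 127 CPM in the SLMAP3-/- lines and 27.2, 205, 102 and 296.5 CPM in the WT lines. WT lines held both the lowest and the highest value, 10.9-fold apart, and the log2 fold change was -0.43 (SE 0.65, adjusted p = 1.00 in edgeR). It was -0.80 without SLMAP3-/- replicate 3 and turned to 0.07 without WT replicate 4. Sfrp1 (chromosome 8, 23411502 to 23449632) was 96.4, 54.4, 379.6 and 180.5 CPM in the SLMAP3-/- lines and 12.4, 126.5, 75.9 and 67.9 CPM in the WT lines. It was highest in SLMAP3-/- replicates 3 and 4 and lowest in WT replicate 1, and the other 5 lines of both genotypes were mixed. Its log2 fold change of 1.33 was the largest in size of the 35, with an SE of 0.74, a 95% interval of -0.35 to 3.01 and an unadjusted p of 0.107 in edgeR. Without SLMAP3-/- replicate 3 it was 0.65, and without WT replicate 1 it was 0.99.

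Of the Dickkopf genes, Dkk3 and Dkk2 were expressed. Dkk3 (chromosome 7, 112116017 to 112159057), the member of the family that does not act as a typical LRP antagonist, took 73.1% of their summed level per kilobase. It was 157, 73.2, 238 and 77.6 CPM in the SLMAP3-/- lines and 122, 88.6, 116.5 and 189 CPM in the WT lines. The SLMAP3-/- lines held both the 2 lowest values and the highest value, and the log2 fold change was 0.08 (SE 0.40). It turned to -0.33 without SLMAP3-/- replicate 3 and was 0.33 without WT replicate 4. Dkk2, which binds LRP6, was between 33.2 and 56.2 CPM in the SLMAP3-/- lines and between 39.4 and 80.4 CPM in the WT lines, with a log2 fold change of -0.13 (SE 0.26).

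The 3 expressed R-spondins, secreted proteins that strengthen Wnt signals, all had fold changes below 0. Rspo2 (chromosome 15, 43020794 to 43170826), needed for limb and lung development, was the highest of them in all 8 lines. It was 42.5, 32.3, 56.3 and 24.3 CPM in the SLMAP3-/- lines and 27.5, 55.3, 119 and 144 CPM in the WT lines. WT replicates 3 and 4 were above all SLMAP3-/- lines, WT replicate 2 was near the highest of them, and WT replicate 1 was below 3 of the 4. The means were 38.8 ± 13.8 CPM (SD, n = 4) in SLMAP3-/- and 86.5 ± 54.2 CPM (SD, n = 4) in WT lines. The log2 fold change was -1.16 (SE 0.49, 95% interval -2.28 to -0.03), with an unadjusted p of 0.0452 and an adjusted p of 1.00 in edgeR. The exact permutation test, two-sided, gave p = 0.2. Leaving out single lines moved the log2 fold change between -0.79, without WT replicate 4, and -1.45, without WT replicate 1. The unadjusted p in edgeR rose above 0.05 without SLMAP3-/- replicates 1, 2 or 4 or WT replicates 3 or 4, and it was 0.00523 without WT replicate 1.

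Rspo3 (chromosome 10, 29452416 to 29535867), a signal of blood vessel and placenta development, was 11.04, 11.6, 33.9 and 1.86 CPM in the SLMAP3-/- lines and 5.64, 16.2, 28.8 and 41.9 CPM in the WT lines. The lowest line was SLMAP3-/- replicate 4 and the highest was WT replicate 4, 22.5-fold above it. Its log2 fold change was -0.66 (SE 0.81), and it was -1.50 without SLMAP3-/- replicate 3 and -0.21 without WT replicate 4. That of Rspo1 was -0.61 (SE 0.64).

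Lines of 1 genotype differed widely in many of these genes. The SD of log2 CPM, pooled within genotype, had a median of 0.66 over the 35 genes, beside 0.28 over all 15461 genes tested. It was above 1 in 11 of the 35 (31.4%), beside 9.19% of all genes. Since low counts vary more, the biological variation that edgeR estimated for each gene was set against its trend at the same level, and 23 of the 35 genes (65.7%) lay above that trend, beside 22.8% of all genes. All expressed Sfrp, Dkk and Rspo genes lay above the trend, as did 8 of the 13 ligands, 6 of the 9 Frizzled receptors and 2 of the 6 co-receptors and kinases, Lrp5 and Ror1. The median SD was 1.27 for the Sfrp genes, 1.198 for the R-spondins, 0.94 for the ligands, 0.54 for the Dkk genes, 0.46 for the Frizzled receptors and 0.26 for the co-receptors and kinases. The largest SDs were those of Wnt2 (1.88), Wnt7a (1.63), Rspo3 (1.51), Sfrp1 (1.34), Wnt4 (1.29) and Sfrp2 (1.199), and the smallest were those of Ryk (0.22), Ptk7 (0.23) and Ror2 (0.23). The median SE of the log2 fold change was 0.42 for the 35 genes and 0.20 for all genes, so that the comparison of genotypes was less precise here than for most genes.

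**Figure D3:**
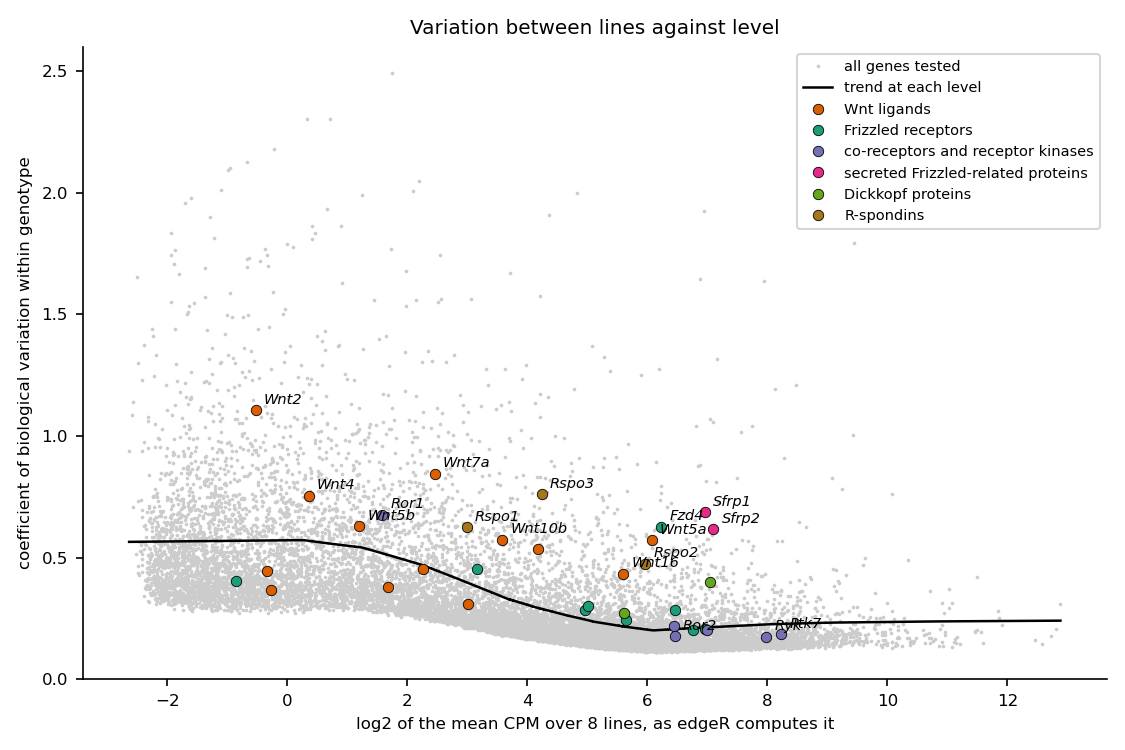
The coefficient of biological variation within genotype is plotted against the level for all genes tested (grey), with the trend at each level as a line and the 35 Wnt pathway genes coloured by role. Sfrp1, Sfrp2, Rspo2, Rspo3, Fzd4, Wnt5a and Wnt16 stand above the line at levels where most genes vary little, and Ryk, Ptk7 and Ror2 are below it.

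WT replicate 1 stood apart in these genes. It was the lowest of the 8 lines for 13 of the 35 genes (37.1%), beside 17.9% of all genes tested. These 13 were Wnt2, Wnt4, Wnt5a, Wnt16, Fzd1, Fzd2, Fzd4, Fzd5, Fzd7, Fzd8, Sfrp1, Sfrp2 and Rspo1. It was also the highest line for 5, namely Wnt10a, Wnt10b, Fzd3, Fzd6 and Dkk2. WT replicate 4 was the highest line for 10 (28.6%), beside 11.8% of all genes, and the 3 expressed R-spondins were among them. The root mean square deviation of WT replicate 1 from the gene means was 1.17 on the log2 scale over the 35 genes and 0.66 over all genes, the highest of the 8 lines in both. Without this line the median SD of the 35 genes was 0.56, and 18 of them lay above the trend, beside 23.1% of all genes. WT replicate 1 was also the lowest line for the summed endothelial markers, at 9.45 CPM, and the lowest for 3 of the 10 fibroblast markers, with Pdgfra at 17.4 CPM (79.0 to 179 in the other lines), Dcn at 0.323 CPM (1.44 to 14.8) and Lum at 0.113 CPM (1.61 to 18.5). Its sum over all 10, at 18840 CPM, was within the range of the other lines. The part of these markers in its Wnt pathway levels was not tested.

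**Figure D4:**
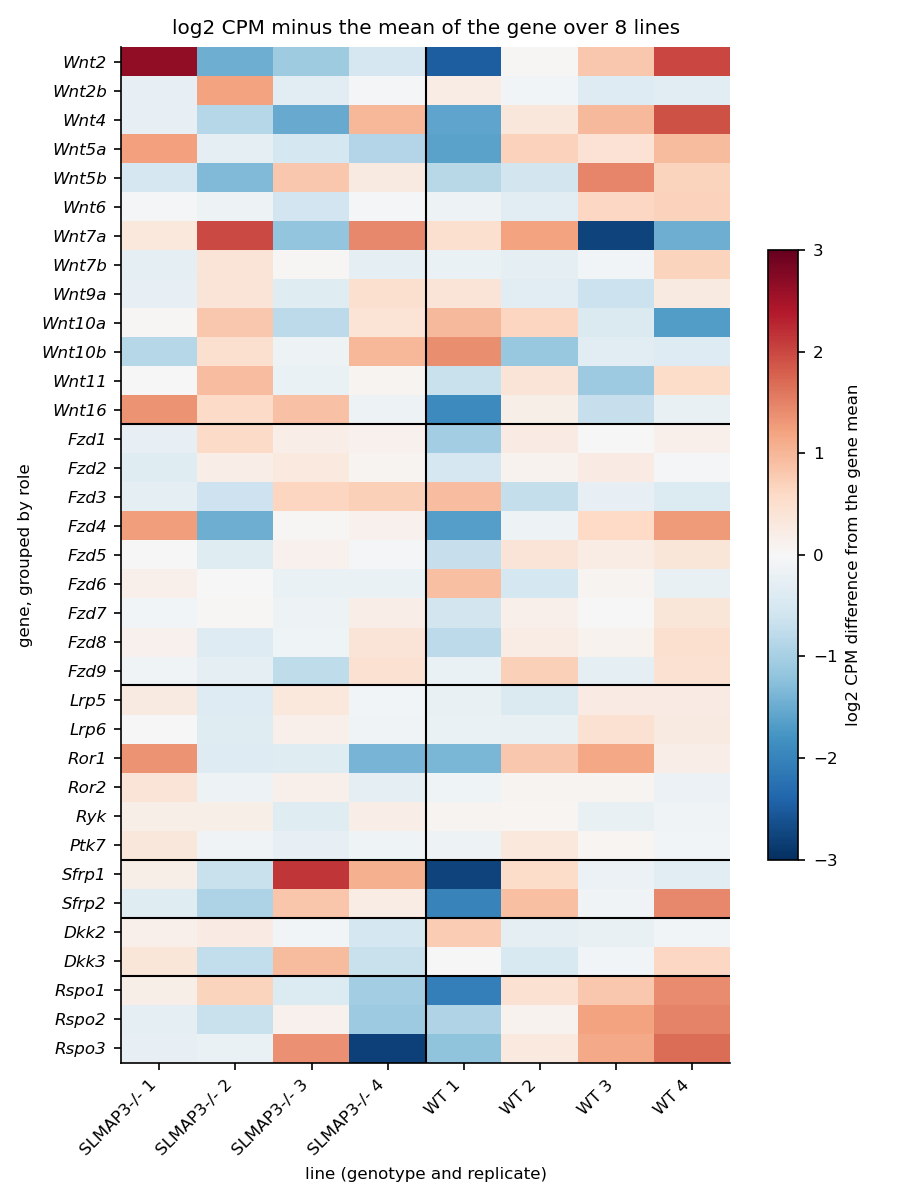
Colours show log2 CPM of each gene in each line minus the mean of that gene over the 8 lines, with SLMAP3-/- lines left and WT lines right of the vertical line. WT replicate 1 is blue for many ligands, Frizzled receptors and both Sfrp genes, and red for Wnt10a, Wnt10b, Fzd3, Fzd6 and Dkk2.

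The rest of the pathway was read out for the same lines. None of the genes in 6 further lists, which share some genes, was called in edgeR, against 0.00647% of all genes tested. None of them had an unadjusted p under 0.05 in edgeR, against 1.81% of all genes. For lists of this size a count of 0 is near those shares. A list of 8 genes joined Wnt secretion with enzymes that inactivate Wnts outside the cell and proteoglycans of the cell surface. All 8 passed the filter, 3 with fold changes above 0 and 5 below. The ligand carrier Wls was at 311 ± 51.8 CPM (SD, n = 4) in SLMAP3-/- and 331.5 ± 25.4 CPM (SD, n = 4) in WT lines. Of 12 other secreted or membrane modulators 8 passed, 2 above and 6 below 0. All 5 R-spondin receptors and ligases passed, 3 above and 2 below. All 9 genes of beta-catenin and its destruction complex passed, 3 above and 6 below, and so did all 8 TCF, LEF and cofactor genes, 6 above and 2 below. Of 15 canonical target genes, 13 passed, 9 above and 4 below, with a median log2 fold change of 0.02. Axin2, the target used most widely as a readout of beta-catenin, was at 14.1 ± 7.08 CPM (SD, n = 4) in SLMAP3-/- and 11.6 ± 5.76 CPM (SD, n = 4) in WT lines, with a log2 fold change of 0.28 (SE 0.43). Lef1, a factor that is itself a target, was at 1.52 ± 0.46 and 1.44 ± 1.00 CPM (SD, n = 4 each), with a log2 fold change of 0.07 (SE 0.47). Among the cell type markers, Col1a1 was at -0.30 (unadjusted p = 0.0458 in edgeR) and the endothelial receptor gene Tek at 1.41 (SE 0.55, unadjusted p = 0.0320 in edgeR), both with overlapping genotypes and an adjusted p of 1.00.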

How the data were processed

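RNA of 4 SLMAP3-/- and 4 WT MEF lines was sequenced from stranded mRNA libraries. The authors assigned reads to the GENCODE M25 transcriptome of GRCm38 with Salmon, and deposited an estimated count per gene and line that was scaled by length but not normalized across libraries. The versions of Salmon and DESeq2 are not given in the sources used here. The authors' deposited comparison (fold changes and p-values from DESeq2) was not used. Estimated counts were rounded, filtered by filterByExpr (minimum count 10) and normalized by TMM, and SLMAP3-/- and WT lines were compared without covariates by the quasi-likelihood test of edgeR 4.0.16 in R 4.3.3, adjusted over 15461 genes. Each SE came from the fold change and its F statistic. Log2 CPM used a prior count of 2. The p-values set the difference between genotypes against the spread between lines. At most 1.23% of tested genes had equal counts in a pair of lines, so no column was a copy of another. The lowest chi-square per degree of freedom in a pair of lines was 61.9, above what counting error alone gives. No library was therefore counted as a repeat sequencing of another. Positions and lengths came from GENCODE M21 (also GRCm38) and promoters from RefSeq (GRCm38.p6).

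The members and lists were chosen with earlier results of these data known. Values in every line are given for Slmap, the highest gene per length of each role, genes with an unadjusted p under 0.05 or genotypes that did not overlap, the 6 genes with the largest SD, and Wnt5a, Ror2 and Ryk. From the lists, genes with an unadjusted p under 0.05 or without overlap, Axin2 and Lef1 are named, and Wls was added after its values were known. DESeq2 1.42.0, limma-voom (limma 3.58.1), DESeq2's size factors, other filters, robust empirical Bayes, a block for the replicate number, a threshold of 0.1, other lengths and prior counts, and leaving out each line were tried as alternatives. edgeR, limma-voom and DESeq2 were tested on simulated data first. Totals of 49879059 to 63322486 estimated counts leave little counting error for genes above a few CPM.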

Additional observations from a re-analysis of the deposited data

Results flagged for a closer look

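For each of the 35 expressed genes, the 4 lines of each genotype were checked for a line whose gap to the nearest of the others was large against the range of the group (Dixon's ratio, at its 95% critical value). Of the 70 groups, 7 had such a line, beside 3.5 at 1 in 20 if values were normally distributed and groups independent. The ratios were taken on CPM and not on its logarithm, and all 35 genes come from the same lines. The 3.5 is therefore a rough guide only. In SLMAP3-/- replicate 1, Wnt2 was 2.32 CPM against 0.100 to 0.230 in the other 3 lines (ratio 0.941), and Wnt5a was 130.7 CPM against 30.5 to 45.9 (0.846). In SLMAP3-/- replicate 2, Wnt2b was 1.68 CPM against 0.546 to 0.671 (0.890). Ryk was lower in SLMAP3-/- replicate 3 than in the other 3 lines, at 193 CPM against 283 to 289.5 (0.932). Among the WT lines, replicate 1 had the highest Wnt10b, at 26.5 CPM against 4.53 to 8.08 (0.838), and the highest Dkk2, at 80.4 CPM against 39.4 to 44.97 (0.864), while replicate 4 had the highest Wnt7b, at 12.5 CPM against 6.52 to 7.44 (0.847).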

How the results depend on the processing

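No Wnt pathway gene passed an adjusted p of 0.05 under any alternative run, in 524 recomputed fold changes, and none passed 0.1 in the main test. Over all genes, edgeR called 1 gene and DESeq2 11, limma-voom 1, and edgeR with the replicate block 0. Of the 35 expressed Wnt pathway genes, the number with an unadjusted p under 0.05 was 2 in edgeR, 3 in DESeq2, 1 in limma-voom and 0 with the replicate block. Of all genes given a p, 1.81%, 1.63%, 1.74% and 1.9% reached it, in the same order. Replicate numbers were not taken as a pairing of the lines, and the correlations of same-numbered lines' deviations were -0.157, 0.058, 0.187 and -0.003. In the deposited names, SLMAP3-/- replicate 3 and WT replicate 4 share a line number. Whether that marks a common litter was not given, and a pairing by it was not tested. Leaving out single lines, the number of Wnt pathway genes with an unadjusted p under 0.05 in edgeR ranged from 0 to 3. In the same fits 1.24% to 3.47% of all genes reached it, the highest share without WT replicate 1 as for the 3. The number was 0 without SLMAP3-/- replicate 1 or WT replicate 3, and 1 without SLMAP3-/- replicates 2 or 4 or WT replicate 4. The count without overlap ranged from 0 to 1 (Ryk without SLMAP3-/- replicate 3, Wnt16 without SLMAP3-/- replicate 4 or WT replicate 2, Fzd5 without WT replicate 1), and 2.10% to 4.42% of all genes did not overlap in the same fits. The median SD ranged from 0.545 to 0.701 and the count above the trend, an alternative chosen after seeing the data, from 18 to 26.

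The sign of the fold change was the same in the 7 other alternatives for 31 of the 35 genes, and in those and the 8 fits without a line for 14. In limma-voom the log2 fold change turned to -0.0871 for Wnt2, 0.0068 for Fzd7, 0.0094 for Fzd8 and -0.0429 for Dkk3, and with the replicate block to -0.9952 for Wnt2, 0.006 for Fzd7 and -0.0349 for Dkk3. Without a single line it turned for 21 genes. Of the ligands, it ranged from -1.94 to 1.07 for Wnt2, -0.0922 to 0.60 for Wnt2b, -0.93 to 3e-04 for Wnt5a, -0.87 to 0.11 for Wnt5b, -0.24 to 0.18 for Wnt7b, -0.0359 to 0.30 for Wnt9a, -0.28 to 0.44 for Wnt10a and -0.30 to 0.85 for Wnt10b. Of the Frizzled receptors, it ranged from -0.0221 to 0.22 for Fzd2, -0.0128 to 0.69 for Fzd3, -0.64 to 0.42 for Fzd4, -0.39 to 0.16 for Fzd6, -0.17 to 0.11 for Fzd7 and -0.24 to 0.12 for Fzd8. For the other roles it ranged from -0.05 to 0.19 for Lrp5, -1.12 to 0.0462 for Ror1, -0.0528 to 0.17 for Ror2, -0.20 to 0.0473 for Ptk7, -0.80 to 0.0741 for Sfrp2, -0.24 to 0.17 for Dkk2 and -0.33 to 0.33 for Dkk3. The cause was not tested.

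The number of expressed genes was 34 with at least 10 counts in every library, 31 with a mean of at least 1 CPM and 35 with at least 1 count in every library. With the longest transcript as length 33 genes stayed within 3 ranks, and with the union of exons 29. For Wnt2, Wnt4, Wnt6, Wnt2b and Fzd9, at about 1 CPM or less, counting error adds to the spread between lines.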
